A study of Mus musculus with 40 samples.

Results

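Lipid mediators made from arachidonic acid act on fibroblasts through a small set of receptors, and 10 genes of this system were measured here in mouse cardiac fibroblasts. They were taken by name, as members of the pathway: the prostanoid receptor genes Ptger1, Ptger2, Ptger3, Ptger4, Ptgir and Ptgfr, the phospholipase A2 genes Pla2g4a, Pla2g4c and Pla2g7, and Lta4h of leukotriene synthesis. All 10 were found among the 55414 gene identifiers of the count table, and all 10 passed the filter of at least 10 counts over the 40 libraries, which kept 25210 genes. Ptger2 passed it with 140 counts in total and Ptger3 with 502, whereas the other 8 had between 3358 and 174623. In GENCODE M21 on GRCm38 the receptor genes lie at chr8:83666678-83672753 (Ptger1, plus strand), chr14:44988195-45003820 (Ptger2, plus), chr3:157566892-157645888 (Ptger3, plus), chr15:5206661-5244187 (Ptger4, minus), chr7:16906490-16910905 (Ptgir, plus) and chr3:151796502-151837630 (Ptgfr, minus). The enzyme genes lie at chr1:149829618-149961290 (Pla2g4a, minus), chr7:13324655-13360672 (Pla2g4c, plus), chr17:43568098-43612201 (Pla2g7, plus) and chr10:93453411-93484875 (Lta4h, plus).

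The fibroblasts came from hearts of TAK1 fl/fl mice, in which loxP sites flank exon 2 of Map3k7, the gene for the kinase TAK1, and every group carried this allele. At passage 1 they received an adenovirus with a CMV promoter that encoded either LacZ, the control gene, or iCre, a Cre recombinase that deletes the exon in culture. After serum starvation the cells were left without ligand (Con) or received 1 of 4 ligands for 24 h, bFGF at 20, TGFβ at 10, IL-1β at 15 or TNFα at 10 ng/ml, which gave 10 groups of 4 libraries. The replicates were male biological replicates, and the control for deletion is thus another virus and not an untransduced culture. The growth medium before starvation also held bFGF, in all groups.

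Library totals ran from 25360947 to 66160732 counts, which set the counting error of the low genes. Map3k7, counted over all exons so that the recombined transcript is included, was at 144 to 159 CPM (counts scaled to library size) in the LacZ Con libraries and at 123 to 133 CPM in the iCre Con libraries. The groups did not overlap, but the difference did not pass the test described below without the replicate block (log2 −0.28, edgeR adjusted p = 0.137, with the block 0.00393). With TNFα it was at 209 to 251 CPM in LacZ and at 126 to 155 CPM in iCre (log2 −0.71, edgeR adjusted p = 0.000829). Fibroblast markers (11 genes) summed to between 16289 and 61510 CPM in the 40 libraries, and macrophage and leukocyte markers (15 genes, of which Cd3e had no count) to between 17 and 217 CPM. The fibroblast sum was lower in iCre without overlap in 2 states, at 37391 to 61510 CPM (LacZ) and 24237 to 35670 CPM (iCre) with IL-1β, and at 26483 to 33572 CPM (LacZ) and 16289 to 24609 CPM (iCre) with TNFα. With the replicate block, 8 of the 11 passed as lower and 2 as higher in iCre in Con, 5 as lower with bFGF, 6 as lower with TGFβ, 8 as lower and 1 as higher with IL-1β, and 7 as lower and 2 as higher with TNFα. The sum of 5 mural and smooth muscle markers had a higher median in iCre in every state, at 413 CPM in LacZ against 914 CPM in Con, 418 against 902 (bFGF), 788 against 1089 (TGFβ), 617 against 856 (IL-1β) and 194 against 909 CPM (TNFα). The ranges were 74.1 to 370 CPM in LacZ and 324 to 1205 CPM in iCre for TNFα, and the groups overlapped in every state. Of these 5, Cspg4 passed as higher with TGFβ, IL-1β and TNFα, Kcnj8 with both cytokines and Rgs5 with TNFα. With the block, Rgs5 and Cspg4 also passed as higher in Con and with bFGF, Rgs5 with IL-1β, and Myh11 as lower in Con. The part of these shifts in the results below was not tested. In the 12 libraries of iCre cells that had TGFβ or a cytokine (IL-1β, TNFα), the level of a gene rose with its GC content (slopes of 0.20 to 0.34), which it did not in the other 28 (−0.25 to 0.00). Values corrected for GC content are therefore given beside results whose call the correction changed.

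Cytosolic phospholipase A2 releases arachidonic acid from membranes, cyclooxygenases and terminal synthases turn it into prostanoids, and 5-lipoxygenase with LTA4 hydrolase turns it into leukotriene B4. Each prostanoid acts on its own G protein-coupled receptors. The prostacyclin receptor and the EP2 and EP4 receptors for prostaglandin E2 raise cAMP, which in cardiac fibroblasts is known to restrain collagen production and the myofibroblast state. EP3 lowers cAMP, and EP1 and the prostaglandin F2α receptor act through calcium.

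Per length of exon and averaged over all 40 libraries, the level was highest for Pla2g4a, the calcium-dependent cytosolic enzyme, with 18.7 CPM per kilobase. Lta4h followed with 11.9 CPM per kilobase and the prostacyclin receptor gene Ptgir with 8.88 CPM per kilobase. Ptger4 (EP4) had 3.98 CPM per kilobase, Ptgfr (the prostaglandin F2α receptor) 2.06, Ptger1 (EP1) 1.74, Pla2g7 1.56 and Pla2g4c 0.635 on the same scale. The order at the top was not that of every group: Lta4h was above Pla2g4a in Con (10.8 against 7.87 CPM per kilobase in LacZ, 13.2 against 10.8 in iCre) and with bFGF (10 against 9.7 in LacZ, 11.9 against 11.7 in iCre), and Ptgir was above both with bFGF in LacZ, at 13 CPM per kilobase. In LacZ, Ptgir was also above Lta4h with IL-1β (12.9 against 10.8 CPM per kilobase) and TNFα (14.2 against 10.1). With TGFβ, Ptgir was at 1.47 in both virus conditions. That was below Ptger1 (1.72 in LacZ, 2.63 in iCre) and, in LacZ, below Ptger4 (3.63). Over all 40 libraries Ptger3 (EP3) and Ptger2 (EP2) were lowest with 0.0558 and 0.017 CPM per kilobase. Among receptors whose signal raises cAMP, the fibroblasts thus held transcripts of Ptgir and Ptger4 far above those of Ptger2.

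**Figure D1:**
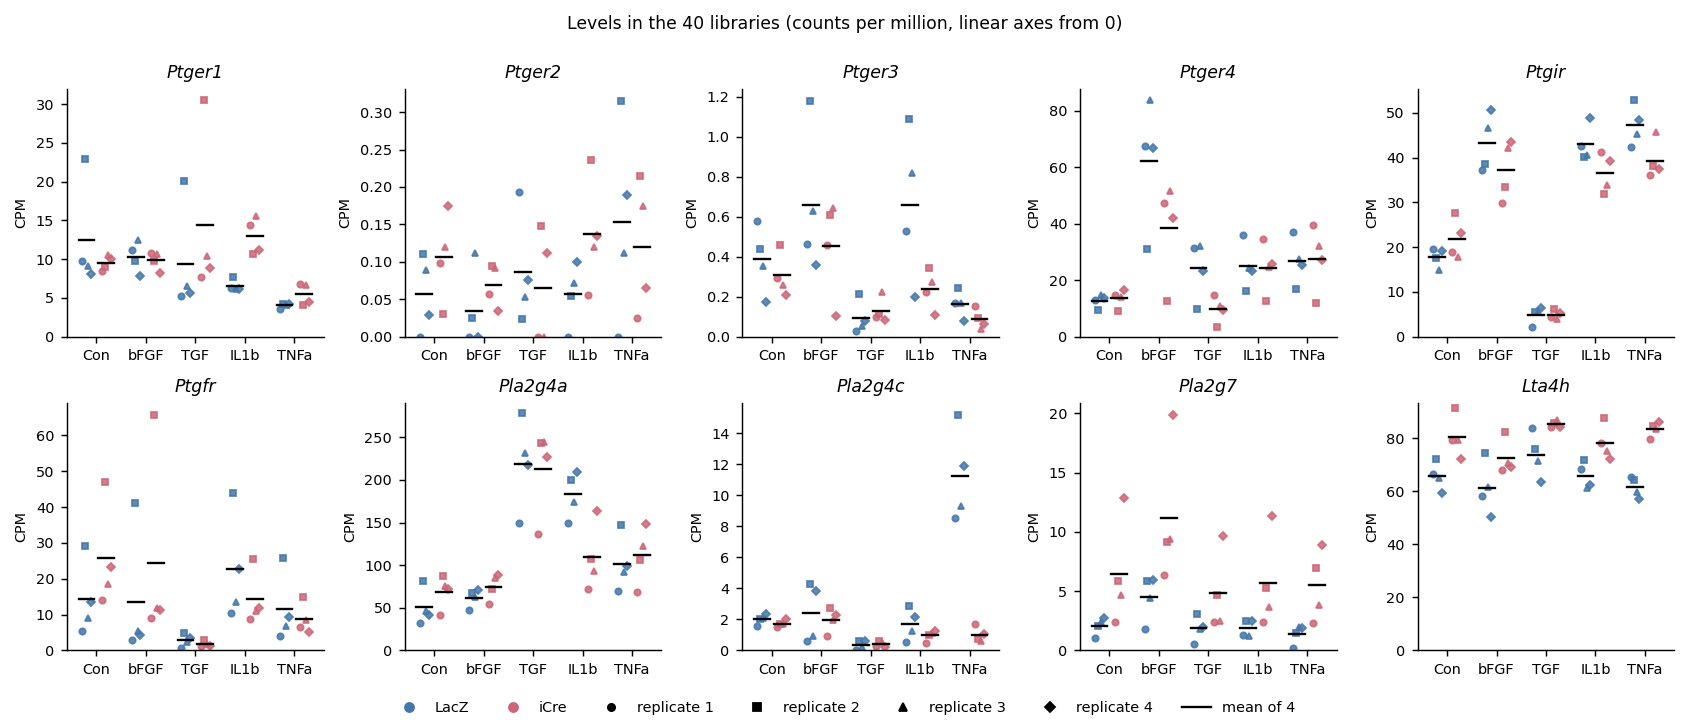
Level of each of the 10 genes in every library (CPM on the vertical axis, ligand state on the horizontal axis, blue for LacZ and red for iCre, marker shape for the replicate number, black bars for means of 4). Pla2g4c stands high in the 4 LacZ libraries with TNFα, between 8.55 and 15.2 CPM, Ptgir is low with TGFβ in both virus conditions, and Pla2g7 is higher in iCre in every state.

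Promoter sequences from RefSeq (GRCm38.p6, 250 bases before to 50 after each annotated start) matched 9 of the 10 genes and gave 11 windows; Ptger1 had none. The 2 starts of Pla2g4c are shown because that gene had the largest difference in ligand response between the virus conditions among the 10, and Ptgir because it passed the test with every ligand in both. Capitals mark the letters that matched one of 4 motifs searched on both strands: GGG, any 2 letters and then TTTCC for NF-κB, TGANTCA for AP-1, TGACGTCA for CRE and CAGACA for SMAD, none of which overlapped another in these windows. The second start of Pla2g4c held the NF-κB letters on the reverse strand, from position −73 relative to the start, which 1.6% of 32851 promoters also held. Ptgir held CAGACA at position 38, and Lta4h, not shown, held it at position −140; 21.0% of all promoters did. No window of the 9 genes held the AP-1 letters (7.8% of promoters) or the CRE letters (1.8%).
Pla2g4c, first start, plus strand, chr7:13325417-13325716: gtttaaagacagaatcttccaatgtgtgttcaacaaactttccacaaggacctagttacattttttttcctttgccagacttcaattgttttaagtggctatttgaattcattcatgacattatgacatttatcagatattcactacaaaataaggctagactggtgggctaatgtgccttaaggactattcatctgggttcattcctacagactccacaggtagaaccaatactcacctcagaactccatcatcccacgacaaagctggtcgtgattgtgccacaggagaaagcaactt
Pla2g4c, second start, plus strand, chr7:13329072-13329371: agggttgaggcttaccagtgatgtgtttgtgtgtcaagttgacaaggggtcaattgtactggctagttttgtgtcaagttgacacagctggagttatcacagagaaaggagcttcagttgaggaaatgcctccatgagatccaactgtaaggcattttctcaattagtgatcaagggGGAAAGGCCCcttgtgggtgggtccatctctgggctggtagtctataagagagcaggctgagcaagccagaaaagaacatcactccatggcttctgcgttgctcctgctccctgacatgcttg
Ptgir, plus strand, chr7:16906240-16906539: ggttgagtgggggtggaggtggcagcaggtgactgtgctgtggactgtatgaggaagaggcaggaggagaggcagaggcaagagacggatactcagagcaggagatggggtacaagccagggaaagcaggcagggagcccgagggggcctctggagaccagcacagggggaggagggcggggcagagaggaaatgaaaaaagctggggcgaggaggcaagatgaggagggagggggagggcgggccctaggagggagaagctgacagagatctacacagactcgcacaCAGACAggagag

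In the comparisons that follow, a gene is said to have passed, risen or fallen where the adjusted p of edgeR's quasi-likelihood test was at most 0.05 over the 25210 genes, with 4 libraries against 4. Libraries with the same replicate number deviated together, so a second fit with the replicate number as a block is given where it changes a call. Ligand comparisons within a virus condition share their Con libraries. The RNA is from bulk cultures, in which fewer cells of a type and less RNA per cell cannot be told apart.

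Between iCre and LacZ, members passed with IL-1β and TNFα, and in the other states with the block. In Con, none passed by edgeR, where 0.0754% of all genes did; 2 had an unadjusted p under 0.05, and DESeq2 called 2 (Pla2g7 and Lta4h) and 5.34% of all genes. With bFGF none passed by edgeR, where 0% of all genes did; 1 had an unadjusted p under 0.05, and DESeq2 called 0 and 1.91% of all genes. With TGFβ none passed by edgeR, where 8.37% of all genes did; 2 had an unadjusted p under 0.05, and DESeq2 called 1 (Ptger4) and 15% of all genes. With IL-1β, 3 of 10 passed, Ptger1 and Pla2g7 as higher and Pla2g4a as lower in iCre, where 16.1% of all genes passed. With TNFα, Pla2g7 and Lta4h were higher and Pla2g4c was lower in iCre, again 3 of 10, where 27.3% of all genes passed. With the replicate block, 4 passed in Con (14.5% of all genes), 5 with bFGF (13.9%) and 3 with TGFβ (20.8%). For the cytokines these were 8 with IL-1β (29.5%) and again 3 with TNFα (32.2%). The median log2 fold change of the 10 was 0.29 in Con, where that of all genes was −0.03. In the other states it was 0.09 (bFGF), 0.03 (TGFβ), −0.15 (IL-1β) and −0.09 (TNFα), where that of all genes lay between 0.00 and 0.04.

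**Figure D2:**
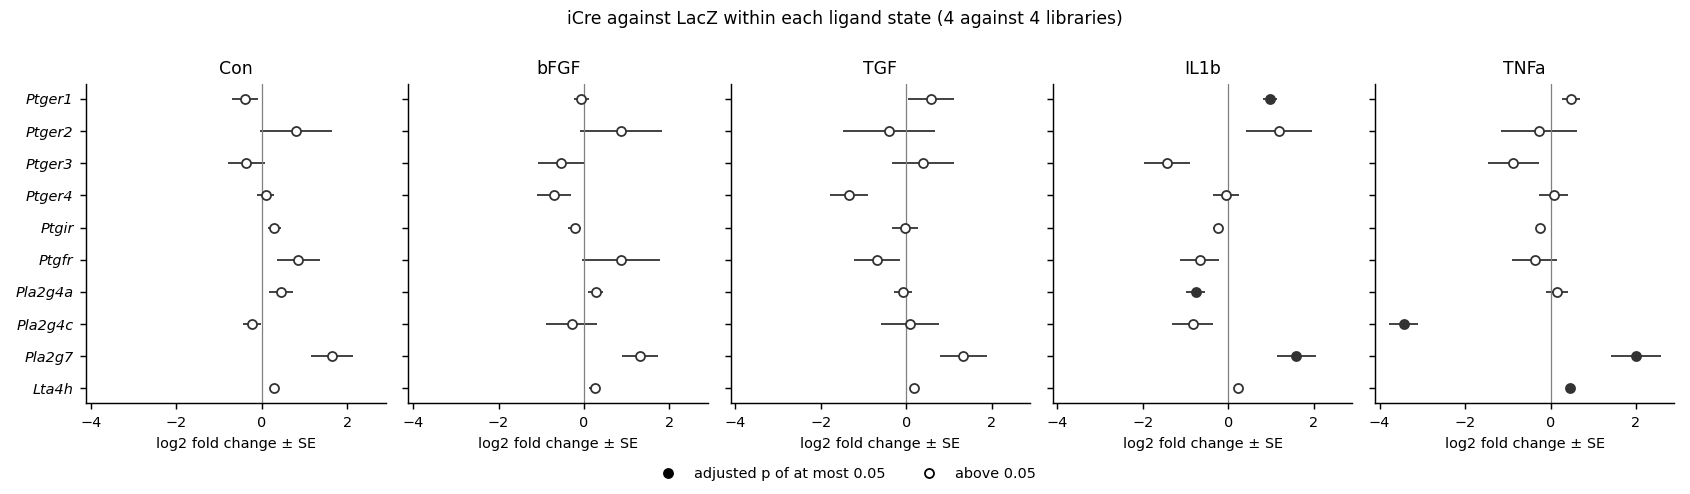
Log2 fold change of iCre over LacZ with its standard error for the 10 genes in each ligand state, 4 libraries against 4, filled points where edgeR's adjusted p was at most 0.05. The point of Pla2g7 lies above 1 in all 5 states, that of Lta4h between 0.18 and 0.46, and that of Pla2g4c is at −3.44 with TNFα.

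In LacZ fibroblasts, bFGF raised 2 of 10, Ptger4 and Ptgir, where 11.6% of all genes passed. TGFβ raised 2 (Ptger4 and Pla2g4a) and lowered 4 (Ptger3, Ptgir, Ptgfr and Pla2g4c), where 36.9% of all genes passed. IL-1β raised 3 (Ptger4, Ptgir and Pla2g4a), where 20.7% passed. TNFα raised 4 (Ptger4, Ptgir, Pla2g4a and Pla2g4c) and lowered Ptger1, where 21.3% passed. Ptger4 and Ptgir thus passed with all 4 ligands in LacZ cells, Ptger4 upward each time and Ptgir upward with all but TGFβ. With the block, the counts became 4 for bFGF (27.3% of all genes), 7 for TGFβ (42%), 5 for IL-1β (33.5%) and 7 for TNFα (35.5%). The median log2 change of all genes was −0.17 with TGFβ and −0.10 with IL-1β in LacZ and −0.11 with TGFβ in iCre.

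In iCre fibroblasts, bFGF raised 1 of 10, Ptgir, where 2.42% of all genes passed. TGFβ raised Pla2g4a and lowered Ptgir, Ptgfr and Pla2g4c, where 37.4% passed. IL-1β raised 1, Ptgir, where 16.3% passed. TNFα raised Ptger4 and Ptgir and lowered Ptger1, Ptger3 and Ptgfr, where 27% passed. With the block, the counts became 3 for bFGF (16.7% of all genes), 5 for TGFβ (41.5%), 6 for IL-1β (33.8%) and 6 for TNFα (36.1%).

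**Figure D3:**
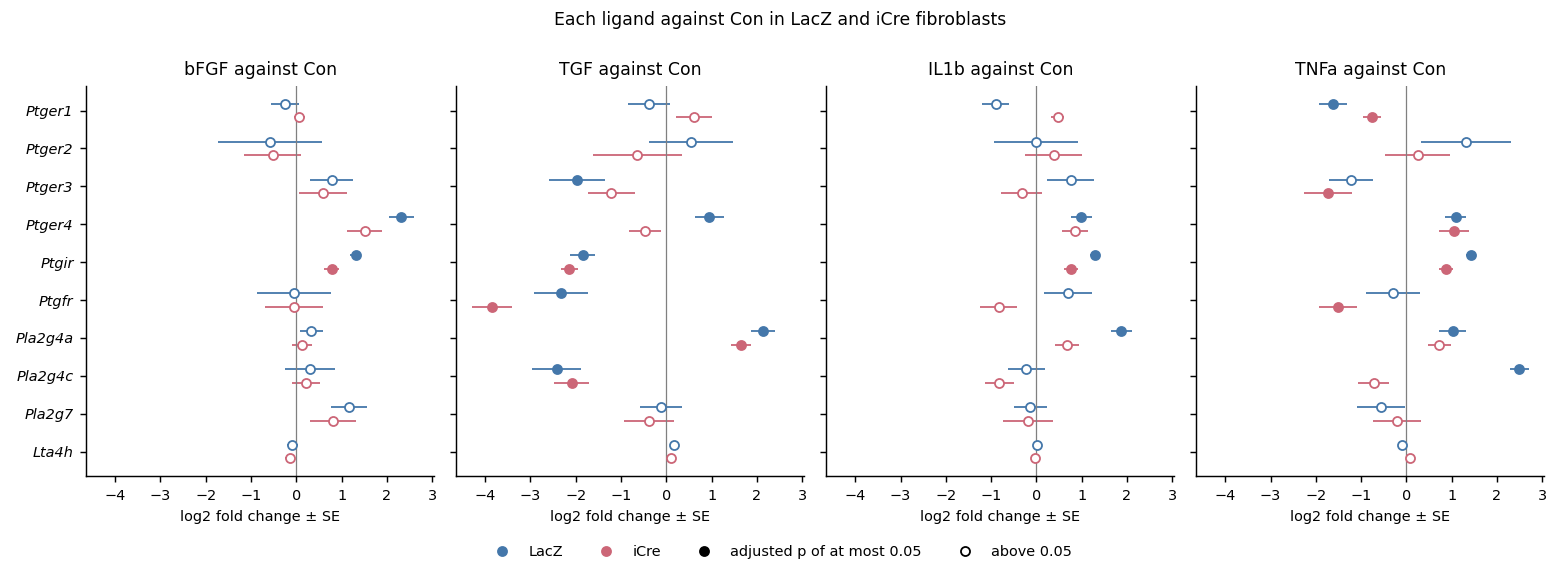
Log2 fold change of each ligand over Con with its standard error in LacZ (blue) and iCre (red) fibroblasts, filled points where edgeR's adjusted p was at most 0.05. Pla2g4c with TNFα lies at 2.49 in LacZ and −0.72 in iCre, Pla2g4a with IL-1β at 1.88 and 0.68, and Ptgfr with TGFβ at −2.33 and −3.85.

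The interaction of ligand and virus, which asks whether a ligand acted differently in iCre and LacZ cells, was tested over 16 libraries for each ligand. Pla2g4c passed with TNFα, where 16.1% of all genes passed, and Ptger1 with IL-1β, where 7.71% did. With bFGF none of the 10 passed by edgeR, where 0% of all genes did; 1 had an unadjusted p under 0.05, and DESeq2 called 0. With TGFβ none of the 10 passed by edgeR, where 4.51% of all genes did; 1 had an unadjusted p under 0.05, and DESeq2 called 0 and 8.68% of all genes. With the block, 3 passed with TGFβ (8.04% of all genes), 4 with IL-1β (16.9%) and 3 with TNFα (25.1%), and 0 with bFGF (0% of all genes).

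Pla2g4c, which encodes a calcium-independent cytosolic phospholipase A2, rose with TNFα in LacZ cells and had no such rise in iCre cells. In LacZ Con the 4 libraries held 1.56, 2.02, 2.08 and 2.32 CPM, and with TNFα 8.55, 15.2, 9.29 and 11.9 CPM. In iCre Con they held 1.51, 1.68, 1.67 and 2.02 CPM, and with TNFα 1.7, 0.761, 0.584 and 1.04 CPM. Every LacZ library with TNFα was thus above every other library of these 4 groups, and in iCre 3 of 4 replicate numbers were lower with TNFα than in Con. The means were 2 ± 0.317 CPM in LacZ Con, 11.2 ± 3.03 CPM with TNFα, 1.72 ± 0.214 CPM in iCre Con and 1.02 ± 0.492 CPM with TNFα (SD, n = 4 each). TNFα raised the gene 5.63-fold in LacZ (log2 2.49, SE 0.21, edgeR adjusted p = 5.7e-05), whereas its log2 change in iCre was −0.72 (SE 0.34, edgeR adjusted p = 0.158). With TNFα it was 10.9-fold lower in iCre than in LacZ (log2 −3.44, SE 0.35, edgeR adjusted p = 0.000197), and the interaction was −3.23 on the log2 scale (SE 0.40, edgeR adjusted p = 7.75e-05). All 4 replicate numbers showed the difference between the viruses, with iCre at 0.05 to 0.199 of LacZ, and the call held in every alternative run, with adjusted p between 2.04e-21 and 0.00524. The window of its second start held the NF-κB letters, as did 1.6% of 32851 promoters, among 4 motifs searched. Use of that start in these cells and a part of the letters in the TNFα response were not tested.

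Pla2g4c passed as higher with no other ligand in the fit without the block. With TGFβ it fell to 0.372 ± 0.281 CPM in LacZ (log2 −2.42, SE 0.54, edgeR adjusted p = 0.00514) and to 0.403 ± 0.207 CPM in iCre (log2 −2.09, SE 0.39, edgeR adjusted p = 0.00161), both from 2 to 26 counts per library. With IL-1β its means were 1.69 ± 1 CPM for LacZ and 0.962 ± 0.353 CPM for iCre, and neither change from Con passed (edgeR adjusted p = 0.762 and 0.116). With the block it fell with IL-1β in iCre (edgeR adjusted p = 0.00187) and was lower in iCre than in LacZ with IL-1β (log2 −0.74, edgeR adjusted p = 0.046), the latter not after GC correction with the block (log2 −0.50, adjusted p = 0.228). In bFGF libraries it spread from 0.627 to 4.3 CPM in LacZ, and the groups of bFGF and Con overlapped in both virus conditions.

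Pla2g4a, which encodes the cytosolic phospholipase A2 that feeds arachidonic acid to cyclooxygenase, rose with TGFβ in both virus conditions, and with IL-1β and TNFα by the test in LacZ. In LacZ the Con libraries held 32, 81.1, 46.3 and 41.8 CPM, those with TGFβ 149, 278, 232 and 217 CPM, and those with IL-1β 149, 200, 174 and 209 CPM. In iCre the Con libraries held 41.9, 87.1, 75 and 71.5 CPM, those with TGFβ 137, 243, 244 and 227 CPM, and those with IL-1β 72.4, 107, 92.6 and 164 CPM. TGFβ thus brought both virus conditions to the same range, while with IL-1β 3 of the 4 iCre libraries lay below all 4 LacZ libraries. TGFβ raised Pla2g4a 4.42-fold in LacZ (log2 2.14, SE 0.27, edgeR adjusted p = 0.000159) and 3.13-fold in iCre (log2 1.65, SE 0.23, edgeR adjusted p = 0.000274). IL-1β raised it 3.68-fold in LacZ (log2 1.88, SE 0.24, edgeR adjusted p = 0.000625), and in iCre the log2 change was 0.68 (SE 0.27, edgeR adjusted p = 0.118, with the block 3.43e-13). TNFα raised it 2.03-fold in LacZ, from a mean of 50.3 to 102 ± 32.4 CPM (log2 1.02, SE 0.29, edgeR adjusted p = 0.0308), and in iCre, where the mean was 111 ± 33.3 CPM, the log2 change was 0.73 (SE 0.26, edgeR adjusted p = 0.0622, with the block 0.000536, without replicate 1 0.00685, after GC correction alone 0.0371). With bFGF the mean was 62 ± 10.3 CPM for LacZ and 74.7 ± 15.4 CPM for iCre, and the change in LacZ passed with the block (log2 0.39, edgeR adjusted p = 0.0242) and without replicate 2 (0.0326), and not with GC correction and the block (0.0757).

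Between the viruses, Pla2g4a was 1.69-fold lower in iCre with IL-1β (183 ± 27.3 against 109 ± 39.4 CPM, log2 −0.76, SE 0.22, edgeR adjusted p = 0.0388), lower in 4 of 4 replicate numbers. Without replicates 1, 2 or 3 the adjusted p was 0.0733, 0.0974 and 0.182, and after GC correction without the block it was 0.132 and in 1 fit of all 40 libraries 0.0528, while it was 2.58e-06 with the block and 4.38e-05 with both. The interaction with IL-1β was −1.21 (SE 0.40, edgeR adjusted p = 0.0808, with the block 0.00075, without replicate 2 0.0454), that with TGFβ −0.52 (SE 0.38, edgeR adjusted p = 0.584, with the block 0.0293, with both 0.22), and that with TNFα −0.30 (SE 0.42, edgeR adjusted p = 0.723, with the block 0.381). In Con it was higher in iCre in 4 of 4 replicate numbers (1.07 to 1.71 times LacZ), with a log2 change of 0.45 (edgeR adjusted p = 0.509, with the block 0.00157), and with bFGF also in 4 of 4 (log2 0.27, edgeR adjusted p = 0.588, with the block 0.0287). The call for TNFα in LacZ was lost without replicate 3 (adjusted p = 0.13) and without replicate 4 (adjusted p = 0.15).

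Pla2g7 encodes the secreted phospholipase A2 that breaks down platelet-activating factor, a lipid made from the same membrane pool. It was higher in iCre in 20 of 20 pairs of libraries with the same replicate number and ligand state. These pairs come from 4 replicate numbers over 5 ligand states. Libraries of the same number deviated together, so the pairs are not independent. The share of all genes with such a count was not determined. In Con the LacZ libraries held 1.03, 2.06, 2.43 and 2.7 CPM and the iCre libraries 2.36, 5.88, 4.67 and 12.9 CPM. With bFGF the LacZ libraries held 1.78, 5.84, 4.43 and 5.98 CPM and the iCre libraries 6.32, 9.15, 9.4 and 19.9 CPM. With TNFα the LacZ libraries held 0.237, 1.5, 1.93 and 1.89 CPM and the iCre libraries 2.34, 6.92, 3.83 and 8.92 CPM. The groups did not overlap with bFGF and TNFα and overlapped in Con, TGFβ and IL-1β, and replicate 4 was the highest of the iCre libraries in each state.

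The log2 fold change of Pla2g7 in iCre was 1.64 in Con (SE 0.49, edgeR adjusted p = 0.184), 1.3 with bFGF (SE 0.42, edgeR adjusted p = 0.387) and 1.34 with TGFβ (SE 0.55, edgeR adjusted p = 0.193). It was 1.59 with IL-1β (SE 0.46, edgeR adjusted p = 0.0425) and 2.0 with TNFα (SE 0.58, edgeR adjusted p = 0.0286). With the block it passed in all 5 states, with log2 changes of 1.29 to 2.06 and adjusted p of 7.21e-05, 1.23e-05, 0.00189, 1.33e-05 and 0.00112 in the order Con, bFGF, TGFβ, IL-1β and TNFα, and it also did with GC correction and the block together. Without replicates 3 or 4 the call with IL-1β was lost (adjusted p = 0.134 and 0.101), and without replicates 2, 3 or 4 that with TNFα (adjusted p = 0.0654, 0.0762 and 0.118). With IL-1β the adjusted p was 0.0628 after GC correction alone and 0.0526 in 1 fit of all 40 libraries. The 4 interactions lay between −0.34 and 0.35 on the log2 scale, and none passed with or without the block. None of the ligands changed it within a virus condition by the test without the block; with the block bFGF raised it in LacZ (log2 1.16 without and edgeR adjusted p = 0.000138 with the block, and 0.0291 without replicate 1) and in iCre (edgeR adjusted p = 0.000241), and TNFα lowered it in LacZ (edgeR adjusted p = 0.0313). Of its 2905 exonic bases, 11% overlap the opposite-strand gene 1700071M16Rik.

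Pla2g7 is also a gene of macrophages, so the macrophage and leukocyte markers are given beside it. Of the 15 markers 14 had counts in each group, and their sum was 70.8 to 217 CPM in LacZ Con and 37.7 to 110 CPM in iCre Con. With bFGF it was 52.3 to 147 CPM in LacZ and 25.2 to 78.6 CPM in iCre, with TGFβ 24.1 to 101 and 17 to 62.9 CPM, with IL-1β 58.4 to 199 and 41.3 to 135 CPM, and with TNFα 50.6 to 195 and 42.4 to 144 CPM. The median log2 change of the markers in iCre was −0.93 in Con, and −1.17, −0.51, −0.59 and −0.52 for bFGF, TGFβ, IL-1β and TNFα. Without the block 1 marker passed in any state, Cd68 as higher with TNFα, where 27.3% of all genes passed. With the block 9 of 14 passed as lower in Con and 7, 2, 7 and 3 in the other states in the same order. Cd68 then passed as higher with IL-1β and TNFα. Of all genes, 14.5% (Con), 13.9% (bFGF), 20.8% (TGFβ), 29.5% (IL-1β) and 32.2% (TNFα) passed in that fit, in either direction. The medians of the sum over the 4 libraries were 116 CPM in LacZ and 72.7 CPM in iCre for Con, 90.9 and 49.7 for bFGF, 43.5 and 35 for TGFβ, 99.8 and 80.1 for IL-1β, and 88.5 and 88.4 for TNFα. The part of these markers in the values of Pla2g7 was not tested.

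Lta4h, whose product makes leukotriene B4 from leukotriene A4, was the steadiest of the 10, with a ratio of 1.4 between the highest and the lowest group mean. It too was higher in iCre in 20 of 20 pairs, which are not independent, as for Pla2g7. With TNFα the LacZ libraries held 65.4, 64.3, 59.5 and 56.9 CPM and the iCre libraries 79.7, 84.4, 83.4 and 86.2 CPM. The groups did not overlap with TNFα, IL-1β or TGFβ. The log2 fold change was 0.46 with TNFα (SE 0.08, edgeR adjusted p = 0.00175), with 61.5 ± 4.02 CPM in LacZ and 83.4 ± 2.74 CPM in iCre. It was 0.28 in Con (SE 0.09, edgeR adjusted p = 0.205), 0.25 with bFGF (SE 0.13, edgeR adjusted p = 0.532), 0.18 with TGFβ (SE 0.09, edgeR adjusted p = 0.274) and 0.23 with IL-1β (SE 0.09, edgeR adjusted p = 0.0971, after GC correction alone 0.0207 with a log2 change of 0.38). With the block, Con (adjusted p = 0.00454), bFGF (0.0279) and IL-1β (0.0177) also passed, and TGFβ did not (0.113), although it did with GC correction and the block (log2 0.35, adjusted p = 0.00752). Against Con, the log2 changes of Lta4h with the 4 ligands lay between −0.14 and 0.18 in both virus conditions, and none passed without GC correction. After GC correction that with TGFβ in iCre passed (log2 0.27, edgeR adjusted p = 0.0237, with the block as well 0.0187), and with correction and block the interaction with TNFα (0.30, adjusted p = 0.0485).

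Ptgir, the gene of the prostacyclin receptor, passed with every ligand in both virus conditions, downward with TGFβ and upward with bFGF, IL-1β and TNFα. In LacZ Con the libraries held 19.5, 17.5, 14.8 and 19.2 CPM, with TGFβ 2.15, 5.53, 5.5 and 6.4 CPM, and with TNFα 42.4, 52.8, 45.4 and 48.5 CPM. In iCre Con they held 19, 27.6, 17.8 and 23.2 CPM, with TGFβ 4.37, 6.07, 3.97 and 5.23 CPM, and with TNFα 36.2, 38.1, 45.7 and 37.4 CPM. In either virus condition the TGFβ libraries lay below all Con libraries and the TNFα libraries above them. In order of their means, 7 of 9 neighbouring groups overlapped; the gaps were below the 6 groups with bFGF, IL-1β or TNFα and below the 2 Con groups.

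TGFβ lowered Ptgir 3.6-fold in LacZ (log2 −1.85, SE 0.28, edgeR adjusted p = 0.000458) and 4.4-fold in iCre (log2 −2.14, SE 0.18, edgeR adjusted p = 1.05e-05). TNFα raised it 2.67-fold in LacZ (log2 1.42, SE 0.11, edgeR adjusted p = 2.88e-05) and 1.84-fold in iCre (log2 0.88, SE 0.15, edgeR adjusted p = 0.00202). IL-1β raised it 2.45-fold to 43 ± 3.99 CPM in LacZ (edgeR adjusted p = 5.36e-05) and 1.69-fold to 36.5 ± 4.38 CPM in iCre (edgeR adjusted p = 0.00779). bFGF raised it 2.47-fold to 43.3 ± 6.4 CPM in LacZ (edgeR adjusted p = 0.000636) and 1.71-fold to 37.3 ± 6.67 CPM in iCre (edgeR adjusted p = 0.0487). Between the viruses, Ptgir was at a log2 change of −0.25 in iCre with IL-1β (edgeR adjusted p = 0.158, with the block 0.0202, after GC correction alone 0.025). It was −0.24 with TNFα (edgeR adjusted p = 0.109, with the block 0.0857, after GC correction alone 0.0109, with both 0.00709) and −0.22 with bFGF (edgeR adjusted p = 0.609, with the block 0.0598, with both 0.0382). The fitted rises were smaller in iCre, with interactions of −0.52 (SE 0.22) for bFGF, −0.54 (SE 0.19) for IL-1β and −0.55 (SE 0.19) for TNFα, which did not pass (edgeR adjusted p = 1, 0.0994 and 0.0647). Under other settings without the block, that with TNFα passed with RLE size factors (adjusted p = 0.0453), with filterByExpr (0.0375), by DESeq2 (0.0188) and after GC correction alone (0.0257), and that with IL-1β by DESeq2 (0.0427). With the block those with IL-1β (adjusted p = 0.016) and TNFα (adjusted p = 0.0405) passed, and after GC correction with the block they were −0.74 (adjusted p = 0.00368) and −0.70 (adjusted p = 0.00928). The call for bFGF in iCre was lost without replicates 1, 3 or 4 (adjusted p = 0.171, 0.399 and 0.287) and after GC correction alone (adjusted p = 0.0563), and that for IL-1β in iCre without replicate 1 (adjusted p = 0.0749) and after GC correction alone (adjusted p = 0.0635).

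Ptger4, the gene of the EP4 receptor for prostaglandin E2, rose with all 4 ligands in LacZ, most with bFGF. In 1 fit of all 40 libraries the call with bFGF held, and those with TGFβ (adjusted p = 0.0717), IL-1β (0.0884) and TNFα (0.0599) were lost. The LacZ Con libraries held 12.9, 9.42, 14.6 and 13.6 CPM, and those with bFGF 67.7, 31.1, 83.7 and 66.7 CPM. The iCre Con libraries held 14.8, 8.97, 14.1 and 16.5 CPM, and those with bFGF 47.2, 12.7, 51.5 and 42.1 CPM. All LacZ libraries with bFGF were above all Con libraries, whereas the replicate 2 library with bFGF in iCre lay within the range of Con. bFGF raised Ptger4 4.99-fold in LacZ (log2 2.32, SE 0.27, edgeR adjusted p = 0.00131), and in iCre the log2 change was 1.51 (SE 0.38, edgeR adjusted p = 0.0755, with the block 1.37e-05, without replicate 2 9.54e-05, in 1 fit of all 40 libraries 0.027). It was lower in iCre than in LacZ with bFGF in 4 of 4 replicate numbers, with a log2 change of −0.70 (SE 0.40, edgeR adjusted p = 0.564, with the block 8.2e-06, without replicate 2 0.0402). The interaction with bFGF did not pass (log2 −0.80, SE 0.50, edgeR adjusted p = 1, with the block 0.744).

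With TGFβ, Ptger4 lay above Con in LacZ and below it in iCre for every replicate number. In LacZ the TGFβ libraries held 31.4, 9.69, 32.1 and 23.3 CPM and in iCre 14.7, 3.44, 11 and 9.57 CPM. Each LacZ library was above the Con library of its number (1.03 to 2.43 times), each iCre library below it (0.384 to 0.995 times), and the nearest to Con were replicate 2 in LacZ and replicate 1 in iCre. The log2 change against Con was 0.95 in LacZ (SE 0.32, edgeR adjusted p = 0.0419) and −0.47 in iCre (SE 0.36, edgeR adjusted p = 0.344, with the block 0.0216, and with GC correction and the block 0.155). Between the viruses it was −1.34 (SE 0.44, edgeR adjusted p = 0.0964, with the block 4.51e-08, without replicate 2 0.000304, in 1 fit of all 40 libraries 0.0308), with iCre at 0.343 to 0.469 of LacZ. The interaction was −1.45 (SE 0.53, edgeR adjusted p = 0.174), and it passed without replicate 2 (−1.46, adjusted p = 0.00136), with the block (−1.43, adjusted p = 0.00244) and with GC correction and the block (−1.25, adjusted p = 0.0176). The call in LacZ was lost without replicates 1, 3 or 4 (adjusted p = 0.169, 0.143 and 0.115).

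With IL-1β and TNFα, Ptger4 lay near the same level in both virus conditions. With IL-1β it was at 25 ± 8.34 CPM in LacZ (log2 0.99, SE 0.23, edgeR adjusted p = 0.0134) and at 24.3 ± 9.02 CPM in iCre (log2 0.86, SE 0.29, edgeR adjusted p = 0.0722, with the block 4.41e-14, without replicate 2 0.00197). With TNFα it was at 26.8 ± 8.28 CPM in LacZ (log2 1.09, SE 0.23, edgeR adjusted p = 0.00764) and at 27.7 ± 11.7 CPM in iCre (log2 1.06, SE 0.33, edgeR adjusted p = 0.037). The interactions were −0.15 (SE 0.40) with IL-1β and −0.04 (SE 0.43) with TNFα, and neither passed with or without the block. The call with IL-1β in LacZ was lost without replicates 1, 3 or 4 (adjusted p = 0.0537, 0.0594 and 0.0622), and that with TNFα in iCre likewise (adjusted p = 0.127, 0.169 and 0.105) and in 1 fit of all 40 libraries (adjusted p = 0.0568). Ttc33 and Gm15937 on the opposite strand overlap 16.5% of the 6648 exonic bases of Ptger4, and the strand setting of the counting is not given in the sources used here. With TGFβ, Ttc33 was at 20.6 to 27.1 CPM in LacZ and at 15.9 to 19.3 CPM in iCre, and its part in the difference of Ptger4 was not tested.

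Ptgfr, the gene of the prostaglandin F2α receptor, fell with TGFβ in both virus conditions. Replicate 2 was the highest library in each of the 10 groups. The LacZ Con libraries held 5.49, 29.1, 9.14 and 13.4 CPM and those with TGFβ 0.635, 4.92, 2.24 and 3.37 CPM. The iCre Con libraries held 14.1, 47.1, 18.6 and 23.2 CPM and those with TGFβ 1.09, 3, 1.8 and 1.22 CPM. In both virus conditions all TGFβ libraries lay below all Con libraries. TGFβ lowered Ptgfr 5.03-fold in LacZ (log2 −2.33, SE 0.60, edgeR adjusted p = 0.0117) and 14.4-fold in iCre (log2 −3.85, SE 0.44, edgeR adjusted p = 6.24e-05). The interaction was −1.54 (SE 0.79, edgeR adjusted p = 0.384, with the block 0.00298, with GC correction and the block 0.046). The call in LacZ was lost without replicate 4 (log2 −2.44, adjusted p = 0.0521).

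With IL-1β, Ptgfr was higher than Con in LacZ and lower in iCre for every replicate number. The IL-1β libraries held 10.3, 44, 13.5 and 22.8 CPM in LacZ; in iCre they held 8.79, 25.5, 11.1 and 11.9 CPM. They were at 1.47 to 1.87 times Con in LacZ and at 0.513 to 0.622 times Con in iCre. Without the block neither change passed (log2 0.69 and −0.83, edgeR adjusted p = 0.405 and 0.215), nor did the interaction of −1.53 (SE 0.75, edgeR adjusted p = 0.277). Without replicate 2 the change in iCre (adjusted p = 0.013) and the interaction (adjusted p = 0.0402) passed. With the block both changes passed (adjusted p = 2.89e-07 and 8.96e-15), and so did the interaction (−1.52, SE 0.17, adjusted p = 5.22e-06), which was −1.11 after GC correction with the block (adjusted p = 0.00025). Between the viruses Ptgfr was higher in iCre in Con in 4 of 4 replicate numbers (1.62 to 2.57 times LacZ, log2 0.85, edgeR adjusted p = 0.476, with the block 7.91e-06) and lower with IL-1β in 4 of 4 (log2 −0.67, edgeR adjusted p = 0.359, with the block 0.000654). The latter was −0.11 after GC correction with the block (adjusted p = 0.612), while that in Con was 1.01 (adjusted p = 2.55e-08).

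With TNFα, Ptgfr fell in iCre from a mean of 25.8 to 8.75 ± 4.33 CPM (log2 −1.52, SE 0.42, edgeR adjusted p = 0.0221), a call lost without replicate 3 (adjusted p = 0.0807), without replicate 4 (adjusted p = 0.0979), after GC correction alone (adjusted p = 0.0802) and in 1 fit of all 40 libraries (adjusted p = 0.109). In LacZ it was at 11.5 ± 9.78 CPM (log2 −0.30, SE 0.60, edgeR adjusted p = 0.777, with the block 0.00365). The interaction with TNFα passed with the block (−1.09, adjusted p = 0.012) and not with GC correction and the block (−0.64, adjusted p = 0.14). With bFGF the replicate 2 libraries held 41.1 CPM in LacZ and 65.8 CPM in iCre, against 2.91 to 5.28 CPM and 8.95 to 11.9 CPM in the others, and replicate 2 alone was higher than in Con (1.41 and 1.4 times). The log2 changes with bFGF were −0.05 in LacZ and −0.06 in iCre (edgeR adjusted p = 0.984 and 0.988), and without replicate 2 Ptgfr passed as lower in both (adjusted p = 0.0256 and 0.0195). Ptgfr was higher in iCre with bFGF in 4 of 4 replicate numbers (1.6 to 3.08 times LacZ, log2 0.87, edgeR adjusted p = 0.744, with the block 1.24e-06, without replicate 2 0.0268). Of the exonic bases of Ptgfr, 4.9% overlap Gm43618 on the opposite strand.

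**Figure D4:**
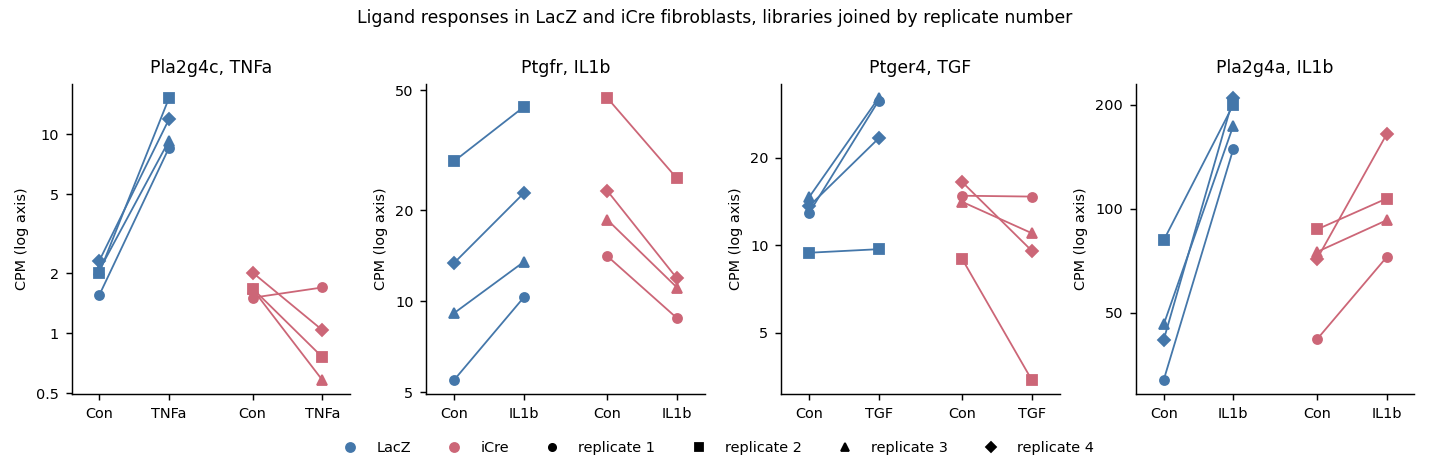
CPM on log axes of Pla2g4c with TNFα, Ptgfr with IL-1β, Ptger4 with TGFβ and Pla2g4a with IL-1β, each beside Con, in LacZ (blue) and iCre (red), with lines joining libraries of the same replicate number. For Ptgfr and Ptger4 all 4 blue lines rise and all 4 red lines fall; for Pla2g4a all 8 rise, the red ones less steeply.

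Ptger1, the gene of the EP1 receptor, fell with TNFα and differed between the viruses with IL-1β. The strand setting of the counting is not given in the sources used here, and the values of Ptger1 are uncertain, since antisense reads may be part of them. In LacZ the IL-1β libraries held 6.29, 7.71, 6.09 and 6.16 CPM and in iCre 14.4, 10.7, 15.5 and 11.2 CPM, with no overlap. Ptger1 was higher in iCre with IL-1β (log2 0.97, SE 0.16, edgeR adjusted p = 0.00247), a call lost in 1 fit of all 40 libraries (adjusted p = 0.0519), and after GC correction with the block the log2 change was 0.69 (adjusted p = 0.000334). Ptger1 had the highest GC content of the 10, 58.5%.

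Against Con, Ptger1 with IL-1β was lower in 4 of 4 LacZ replicate numbers (log2 −0.90, SE 0.30, edgeR adjusted p = 0.0559, with the block 1.8e-05, without replicate 2 0.015) and higher in 4 of 4 in iCre (log2 0.47, SE 0.15, edgeR adjusted p = 0.0567, with the block 8.21e-05, without replicate 2 0.0348, with GC correction and the block 0.058). The interaction was 1.36 (SE 0.36, edgeR adjusted p = 0.0276). That call was lost without replicate 1 (adjusted p = 0.14), 3 (0.141) or 4 (0.0721) and after GC correction alone (0.0892) or in 1 fit of all 40 libraries (0.103), and it held with the block (0.00586) and with both (0.023). TNFα lowered Ptger1 3.08-fold in LacZ, to 4.02 ± 0.296 CPM (log2 −1.62, SE 0.31, edgeR adjusted p = 0.00483), and 1.69-fold in iCre, to 5.49 ± 1.43 CPM (log2 −0.75, SE 0.20, edgeR adjusted p = 0.0174). The latter call was lost without replicate 3 (adjusted p = 0.0671), without replicate 4 (adjusted p = 0.1) and in 1 fit of all 40 libraries (adjusted p = 0.0975). The LacZ libraries with TGFβ were below Con for Ptger1 in 4 of 4 replicate numbers (0.541 to 0.881 times, log2 −0.38, SE 0.47, edgeR adjusted p = 0.567, with the block 0.0107, without replicate 2 0.00781, with GC correction and the block 0.0176). With TGFβ, Ptger1 was higher in iCre in 4 of 4 replicate numbers (1.46 to 1.59 times, edgeR adjusted p = 0.575, with the block 0.000875, with GC correction and the block 0.171). With TGFβ the replicate 2 libraries held 20.1 CPM in LacZ and 30.6 CPM in iCre, against 5.24 to 6.52 and 7.64 to 10.4 CPM in the others, and in LacZ Con replicate 2 held 22.9 CPM against 8.11 to 9.69 CPM.

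Ptger3 and Ptger2 were near the limit of these libraries. Ptger3, the gene of the EP3 receptor that lowers cAMP, had 1 to 47 counts per library and fell with TGFβ in LacZ from 0.387 ± 0.17 to 0.0921 ± 0.0821 CPM (log2 −1.98, SE 0.62, edgeR adjusted p = 0.0292). In iCre the log2 change with TGFβ was −1.22 (edgeR adjusted p = 0.0915), and TNFα lowered it there (log2 −1.74, SE 0.53, edgeR adjusted p = 0.0348) with −1.22 in LacZ (edgeR adjusted p = 0.108). With IL-1β it was lower in iCre than in LacZ in 4 of 4 replicate numbers (0.318 to 0.537 times, log2 −1.44, edgeR adjusted p = 0.0999, with the block 0.0103, in 1 fit of all 40 libraries 0.0483). The call with TGFβ was lost without replicates 1, 3 or 4 (adjusted p = 0.152, 0.124 and 0.0592) and that with TNFα in iCre without replicates 2, 3 or 4 (adjusted p = 0.137, 0.148 and 0.102). Ptger2, the gene of the EP2 receptor, had 0 to 13 counts per library and none in 7 libraries, where a count of 0 allows up to 3 counts. It passed in none of the comparisons by edgeR, with a lowest unadjusted p of 0.151, nor by DESeq2 where that gave an adjusted p, and a difference was not detectable at this depth.

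Other genes of the pathway were taken from 6 lists. Of 15 genes of prostaglandin synthesis, transport and breakdown, all tested, 4 passed between iCre and LacZ with IL-1β (1 higher, 3 lower), where 16.1% of all genes passed, and 5 with TNFα (4 higher, 1 lower), where 27.3% did. Ptgs1, the constitutive cyclooxygenase, was higher in iCre with IL-1β (83.8 ± 18.8 against 174 ± 54 CPM, log2 1.05, edgeR adjusted p = 0.0115). Its difference was larger with TNFα (78.8 ± 22.8 against 321 ± 129 CPM, log2 2.05, edgeR adjusted p = 0.00135). Ptges3, a prostaglandin E synthase and HSP90 co-chaperone, was lower in iCre with TGFβ (log2 −0.90), IL-1β (log2 −0.97) and TNFα (log2 −0.61), with −0.65, −0.73 and −0.32 after GC correction with the block. In LacZ, TGFβ raised 4 and lowered 8 of these 15, where 36.9% of all genes passed. Ptgs2, the inducible cyclooxygenase, rose from 11.4 ± 6.11 to 621 ± 236 CPM (log2 5.80, SE 0.41, edgeR adjusted p = 5.09e-06). Ptges, a prostaglandin E synthase, fell in LacZ with TGFβ from 27.2 ± 10.2 to 10.7 ± 4.55 CPM (log2 −1.32, SE 0.32, edgeR adjusted p = 0.00863), and rose there to 71.8 ± 13.6 CPM with IL-1β (log2 1.42, edgeR adjusted p = 0.00238) and to 113 ± 48.6 CPM with TNFα (log2 2.06, edgeR adjusted p = 0.00168).

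Among 24 other phospholipase A2 genes, 17 were tested. Pla2g16, a phospholipase of adipocytes, shared the direction of Pla2g4c with TNFα: it rose from 25.7 ± 3.27 to 84.6 ± 7.68 CPM in LacZ (log2 1.72, edgeR adjusted p = 1.18e-05) and was lower in iCre with TNFα (17.1 ± 6.44 CPM, log2 −2.28, edgeR adjusted p = 0.000303, interaction −1.93, adjusted p = 0.000878). It was the 1 gene of that list that passed with TNFα in LacZ, where 21.3% of all genes did. With IL-1β in LacZ, 2 of the 17 passed, Pla2g2e and Pafah1b1, both as higher, where 20.7% of all genes passed. Of the platelet-activating factor acetylhydrolase subunits, Pafah1b1 was lower in iCre with TGFβ, IL-1β and TNFα (log2 −0.48, −0.69 and −0.52), but its values were 0.03, −0.19 and 0.03 after GC correction with the block. Pafah1b3 was higher with IL-1β and TNFα (log2 0.56 and 0.85, after that correction 0.33 and 0.65).

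Of 3 other prostanoid receptor genes, all tested, Tbxa2r, the thromboxane receptor gene, was the one that passed in any comparison. It fell with bFGF in LacZ (log2 −0.95, edgeR adjusted p = 0.0479), where 11.6% of all genes passed. With TNFα in iCre it also fell (log2 −1.29, edgeR adjusted p = 0.0227), where 27% passed. Of 5 leukotriene receptor genes 4 were tested, and 1 passed, a gene with a mean below 1 CPM and therefore not named. It was lower with TGFβ in LacZ, where 36.9% of all genes passed, and lower in iCre with TNFα, where 27.3% did. Of 8 other leukotriene and lipoxygenase genes 7 were tested, and Ltc4s, the leukotriene C4 synthase gene, fell with TGFβ in both virus conditions. In LacZ it went from 0.842 ± 0.569 to 0.123 ± 0.0557 CPM (log2 −2.69, edgeR adjusted p = 0.00357), where 36.9% of all genes passed. In iCre the log2 change was −2.14 (edgeR adjusted p = 0.0114), where 37.4% passed. Of 10 G protein and cAMP genes, Pde4b, a phosphodiesterase that breaks down cAMP, passed in the interactions with TGFβ (−1.3), IL-1β (−0.76) and TNFα (−0.94), each negative. With TNFα, 5 of these 10 passed between the viruses, all as higher in iCre, where 27.3% of all genes passed, among them the adenylyl cyclase gene Adcy7 (log2 0.97, edgeR adjusted p = 0.00102).

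The genes whose 10 group means were most like those of a member are given as a description, over the 13073 genes whose mean was no lower than 1 CPM. For Ptgir these were Hpse, 4930556M19Rik and Rapgef5 (Pearson r of 0.988, 0.983 and 0.982). For Pla2g4c they were Ifit2, Tgtp2 and Plgrkt (0.973, 0.973 and 0.967), for Pla2g4a Runx1 and Alg9 (0.979 and 0.966), and for Pla2g7 Gata2, Garem1 and Trio (0.967, 0.964 and 0.963). For Ptgfr they were Ednrb, the opposite-strand gene Gm43618 and Ugt1a7c (0.978, 0.968 and 0.963), for Ptger4 Adam9, Trpm6 and Klhl5 (0.955, 0.910 and 0.907), for Lta4h Ddx19a, Inppl1 and Klc3 (0.958, 0.956 and 0.953), and for Ptger1 Tfeb, Snhg18 and Rrnad1 (0.920, 0.895 and 0.886). The points are 10 group means from the same 40 libraries and share their depth and base composition.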

How the data were processed

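RNA-seq counts were deposited by the authors as 1 table of raw, not normalized counts per gene for 40 libraries. Per the study's methods, reads were checked with FastQC, aligned with STAR to mm10 and counted with HTSeq; the submitters' processing notes name FastQC 0.10.1 and HTSeq 0.10.0. The methods name a TruSeq Stranded kit and the labels NEBNext Ultra II, so the library kit is unsettled. The strand setting of the counting and the annotation release are not given in the sources used here.

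From these counts, genes with at least 10 counts over the 40 libraries (25210 of 55414) were tested with edgeR 4.0.16 (limma 3.58.1, R 4.3.3): TMM normalization, quasi-likelihood fit of the groups compared, Benjamini-Hochberg adjustment over all tested genes, threshold 0.05. Each comparison used 8 libraries and each interaction 16. CPM values use TMM library sizes, and CPM per kilobase divides by the exon union of GENCODE M21 (GRCm38). Depth was 25360947 to 66160732 counts per library (median 36183962), and intervals and limits cover counting error only. Tables and promoter searches used Python 3.11.15, pandas 2.3.3 and numpy 2.4.6. The fit without the block was run on simulated counts for the TNFα comparison between the viruses and the TNFα interaction. These counts held no replicate pairing and no GC trend, and the alternative fits were not tested in this way.

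Alternatives were DESeq2 1.42.0, RLE size factors, other filters, each replicate number left out, the replicate number as a block, all 40 libraries in 1 fit, and a GC content correction with and without the block. Replicate numbers come from the labels. Deviations from group means correlated between libraries of the same number in every comparison (0.33 to 0.86 over 13090 genes; other numbers −0.71 to 0.42), so the numbers pair the libraries, by the data and not by a statement in the labels. No 2 libraries of a group agreed within sampling noise. P-values measure the spread between these samples.

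All 10 members are named. Of each other pathway list, at most the 3 passing genes with the largest absolute log2 fold change and a mean of at least 1 CPM are named per comparison, and for each member above 1 CPM up to 3 genes of most similar group means; some results are not reported here. The members and lists were chosen with earlier results of these data known. Gene coordinates are from GENCODE M21 (GRCm38, the assembly of mm10), which held 52133 of the 55414 identifiers and 99.59% of the counts, and promoter sequences from RefSeq on GRCm38.p6.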

Additional observations from a re-analysis of the deposited data

Results flagged for a closer look

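Of 100 groups of 4 libraries examined (10 genes in 10 groups), 7 had a library far from the other 3 by Dixon's criterion at 95%, which chance exceeds in about 1 in 20 groups. Replicate 2 was the highest for Ptger1 in 4 groups: LacZ Con with 22.9 CPM (others 8.11 to 9.69), LacZ with TGFβ 20.1 CPM (5.24 to 6.52), LacZ with IL-1β 7.71 CPM (6.09 to 6.29) and iCre with TGFβ 30.6 CPM (7.64 to 10.4). Replicate 2 was also the highest for Ptgfr with bFGF, at 41.1 CPM in LacZ (2.91 to 5.28) and 65.8 CPM in iCre (8.95 to 11.9). Replicate 1 was the lowest for Pla2g4a in iCre with TGFβ, at 137 CPM (227 to 244).

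The ligand response differed between iCre and LacZ by the interaction test for Ptger1 with IL-1β (log2 1.36, edgeR adjusted p = 0.0276) and for Pla2g4c with TNFα (log2 −3.23, edgeR adjusted p = 7.75e-05). For 2 further genes every replicate number lay above Con in LacZ and below it in iCre: Ptger4 with TGFβ (interaction −1.45, edgeR adjusted p = 0.174, with the block 0.00244) and Ptgfr with IL-1β (interaction −1.53, edgeR adjusted p = 0.277, with the block 5.22e-06).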

How the results depend on the processing

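No fold change that passed turned its direction under the alternatives run. The numbers of the 10 genes that passed moved by over 1.5 times as follows. The share of all genes tested that passed in the same fit stands in parentheses. With DESeq2, 2 passed in Con (5.34%) and 1 with TGFβ (15%) between iCre and LacZ, 2 with bFGF (7.93%) and 4 with IL-1β (21.9%) against Con in iCre, and 3 and 2 in the interactions with IL-1β (11.7%) and TNFα (20.5%). With RLE size factors, 0 passed with bFGF in iCre (2.24%) and 2 in the interaction with TNFα (15.6%). With filterByExpr, which keeps fewer genes, 2 passed with IL-1β in iCre (29.9%) and 2 in the interaction with TNFα (28.8%). With all 40 libraries in 1 fit, 1 passed with TGFβ (Ptger4, 14.2%) and 1 with IL-1β (Ptger3, 20%, while the calls of Ptger1, Pla2g4a and Pla2g7 were lost) between the viruses, 2 with bFGF (6.04%) and 2 with TNFα (31.9%) in iCre, and 0 in the interaction with IL-1β (7.82%). After GC correction, 0 passed with bFGF (2.15%) and 0 with IL-1β (9.65%) in iCre, and 0 (3.88%) and 2 (11.9%) in the interactions with IL-1β and TNFα.

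With the replicate block, whose shares are given with the comparisons, 4 passed in Con, 5 with bFGF, 3 with TGFβ and 8 with IL-1β between the viruses, 4 with bFGF and 5 with IL-1β in LacZ, 3 with bFGF and 6 with IL-1β in iCre, and 3, 4 and 3 in the interactions with TGFβ, IL-1β and TNFα. With GC correction and the replicate block these were 4 (15.1%), 6 (14.2%), 3 (9.45%) and 6 (22.4%) between the viruses, 5 with IL-1β in LacZ (33.9%), 3 with bFGF (16.5%) and 5 with IL-1β (29.4%) in iCre, and 2 (2.59%), 4 (12.2%) and 3 (21.1%) in the interactions. Of 35 calls, leaving out replicate 3 or replicate 4 each ended 13, replicate 1 8 and replicate 2 3, all 40 libraries in 1 fit 10, GC correction alone 6, RLE size factors 1, and the block, DESeq2 and no filter 0.

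Leaving out 1 replicate number gave 0 to 0 genes in Con, 0 to 2 with bFGF, 0 to 1 with TGFβ, 1 to 2 with IL-1β and 2 to 3 with TNFα between the viruses. It gave 2 to 4 with bFGF, 3 to 7 with TGFβ, 2 to 4 with IL-1β and 4 to 5 with TNFα in LacZ, and 0 to 3, 4 to 4, 0 to 4 and 1 to 6 in iCre in the same order. In the interactions it gave 0 to 0, 0 to 1, 0 to 3 and 1 to 1. These fits have fewer samples, and the cause of the other shifts was not tested. Without TMM scaling, 6 of 100 group means moved by over 1 SD. Depth limits Ptger2 and Ptger3.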
